A study of Mus musculus with 6 samples.

Results

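The DNA replication machinery is the set of proteins that copies the genome, and its transcripts were measured in resting and CpG-stimulated mouse B cells. The members were 46 genes named for their part in replication, from origin recognition to the copying of DNA methylation, and they were taken by gene symbol. All 46 were found among the 23420 genes in the data. All 46 also passed the filter on low values, as did 11233 genes in total.

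B cells were purified with beads from the spleens of wild-type BALB/c mice aged 7 to 11 weeks. In 3 samples, 10 M cells were cultured for 4 h at 10 M cells/mL with 10 µg/mL of CpG ODN 1826, a DNA oligonucleotide that activates TLR9, and in the other 3 samples the cells were left without stimulus for the same time. In each group replicates 1 and 2 are labelled female and replicate 3 is labelled male. The comparison asks which transcripts a TLR9 signal changes in B cells within hours.

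Before a cell divides, origins of replication are marked by the origin recognition complex, which, with CDC6 and CDT1, loads the ring of MCM proteins onto DNA during G1. Kinases then turn the ring into an active helicase by adding CDC45 and the GINS complex, and polymerases copy the strands it unwinds. Mature splenic B cells are mostly quiescent, and an activated B cell must assemble this machinery before it enters S phase, a step in which E2F factors and their RB-family repressors are known regulators.

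The values are log2 CPM, read counts scaled to a common library size and put on a log2 scale. On this scale 10 reads correspond to -0.76. A gene was tested when it was above the level of 10 reads in at least 3 of the 6 samples, and the members were above it in all 6 samples. The log2FC is the mean of the CpG-stimulated samples minus the mean of the unstimulated samples. A gene is called increased or decreased when limma's p-value after Benjamini-Hochberg adjustment over the 11233 genes tested (FDR) is under 0.05. These p-values measure the spread between these samples, and an exact permutation test of 3 against 3 samples cannot give a p below 0.1. They come from a fit by group only, although samples of the same replicate number vary together, as described at the end. With replicate number fitted as a block, 0 members changed their call. With 1 sample left out the groups no longer hold the same replicate numbers, so differences shared by same-numbered samples enter the log2FC given for that case.

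Marker genes were read against the label of the samples. All 8 B cell markers were above the level of 10 reads, with a median of 8.91 log2 CPM. Of 6 T cell markers in the data, the only one above that level was Lck at 6.72 log2 CPM. The myeloid markers passed in 3 of 6 cases, led by Adgre1 at 2.75 log2 CPM, the NK cell markers in 1 of 4 (Prf1, 0.84 log2 CPM) and the plasmacytoid dendritic cell markers in 1 of 2 (Ccr9, 0.31 log2 CPM). The 6 germinal centre and plasmablast markers all passed, led by Jchain at 9.19 log2 CPM. Of 7 erythroid markers, 5 passed on average, led by Hbb-bs at 9.80 log2 CPM, while Hba-a1 had no reads.

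Some of these markers differed between the groups. The plasmablast list summed to 413, 472 and 542 CPM in CpG-stimulated replicates and to 731, 778 and 1079 CPM in unstimulated ones, with Jchain (log2FC -0.87) and Sdc1 (-0.93) decreased. The T cell list summed to 134, 141 and 124 CPM against 90.7, 91.6 and 71.1 CPM, nearly all of it Lck (log2FC 0.67, increased), while Cd3d, Cd3e and Cd3g were under the level of 10 reads in all 6 samples. The myeloid, NK cell and plasmacytoid dendritic cell lists each summed to at most 15.4 CPM in a sample, with Csf1r (log2FC -1.61), Prf1 (-1.57) and Ccr9 (-0.94) decreased and Adgre1 (0.83) increased. Klrb1c, of the NK cell list, was not tested, with -0.84, 0.23 and 0.23 log2 CPM in CpG-stimulated replicates and -4.27, -4.79 and -4.90 in unstimulated ones. The B cell list summed to 2948, 3343 and 3366 CPM in CpG-stimulated replicates and to 3958, 3950 and 4575 CPM in unstimulated ones. Among B cell markers 3 were increased, led by Fcer2a (log2FC 0.83), and 4 decreased, led by Cd22 (-2.40) and Cd79a (-1.625). Of the erythroid markers Ermap was decreased (-1.31), and with replicate number fitted as a block Hbb-bs (log2FC 0.21, limma Benjamini-Hochberg FDR 0.0245) and Slc4a1 (-0.47, 0.00719) passed as well. The calls of Csf1r, Adgre1, Ccr9 and Ermap were lost without a filter. With samples left out they were lost in Csf1r without unstimulated replicate 3 (-1.42) and in the female pairs (-1.69), in Adgre1 without number 2 in both groups (0.72), in Ermap without unstimulated replicate 2 (-1.04), and in Ccr9 without CpG-stimulated replicate 3 (-0.715), unstimulated replicate 2 (-0.86) or 3 (-0.87) and in the female pairs (-0.64). The part of these changes in the members' values was not tested.

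The erythroid markers summed to 385, 4918 and 614 CPM in CpG-stimulated replicates 1, 2 and 3 and to 410, 3854 and 503 CPM in unstimulated replicates 1, 2 and 3. Both samples numbered 2 thus stood apart in erythroid transcripts, and to a like extent in the 2 groups. Of the 46 members, 4 (8.7%) were highest in replicate 2 of both groups, beside 14.5% of all genes tested. In a list of mitosis genes this held for 5 of 12 (41.7%). Within the unstimulated group 34.8% of members were highest in replicate 2, beside 29.1% of all genes tested. Within the CpG-stimulated group the shares were 21.7% and 35.1%. The part of erythroid transcripts in the members' values was not tested, and counts without replicate number 2 are given at the end.

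Of the 46 members, 18 were increased (39.1%) and 12 were decreased (26.1%), while 16 were not past the FDR threshold. Over all genes tested, 37.6% were increased and 36.7% were decreased, so the share of increased members was near the background. The members past the threshold made up 65.2%, against 74.3% of all genes tested. The median log2FC of the members was 0.12, with quartiles of -0.24 and 0.69, beside a median of 0.00 over all genes. Between samples of the same number, the median difference of the members was 0.28, 0.071 and 0.148 for numbers 1 to 3. The median absolute log2FC of the members, 0.53, was below the 0.64 of all genes.

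Large changes were counted in each direction. A log2FC over 1 with FDR under 0.05 was reached by 6 of the 46 members (Orc1, Orc2, Orc6, Mcm10, Pold2 and Fen1), a share near the 15.8% of all genes tested. Mcm10 was outside this count without a filter (FDR 0.0932 by limma with Benjamini-Hochberg adjustment), with log2(CPM + 1) (log2FC 0.69), in the female pairs (0.76), without CpG-stimulated replicate 1 (0.91) and without unstimulated replicate 3 (0.71). A log2FC under -1 was reached by 1 of the 46 members, Cdt1, a share below the 15.3% of all genes tested. Rpa1 (-1.03) took its place without unstimulated replicate 1, and Orc5 (-1.05) was under -1 beside it without unstimulated replicate 2. The 3 CpG-stimulated values lay entirely above the unstimulated ones in 20 members and entirely below them in 13, so 33 members (71.7%) had groups that did not overlap, beside 77.7% of all genes tested. In such bulk samples, fewer cells that hold a transcript and less of it per cell cannot be told apart.

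Members were also counted by level. Of 36 members with a mean of 3 log2 CPM or more, 16 were increased (44.4%), 12 decreased (33.3%) and 8 not past the threshold (22.2%), beside 40.3%, 39.0% and 20.6% of all genes tested at that level. Of 10 members below that level, 2 were increased and 8 were not past the threshold, with 0 decreased by limma at FDR under 0.05 and 0 at an unadjusted p under 0.05, while of the 3242 genes tested at that level 1003 were increased, 1006 decreased and 1233 not past it. Over all genes tested 37.6% were increased and 36.7% decreased, and the counts by role and by related list that follow stand beside these shares. Both directions were present in 9 of the 11 lists of related genes given further on. Each of the 8 roles likewise held at least 1 increased and at least 1 decreased gene, so this was not particular to the roles. Without a filter this held in 6 roles, since helicase activation and the copying of chromatin and methylation had no increased gene, and it held in 7 in the female pairs or without unstimulated replicate 3, where polymerases and primase had no decreased gene. The roles are taken in the order in which they act.

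**Figure D1:**
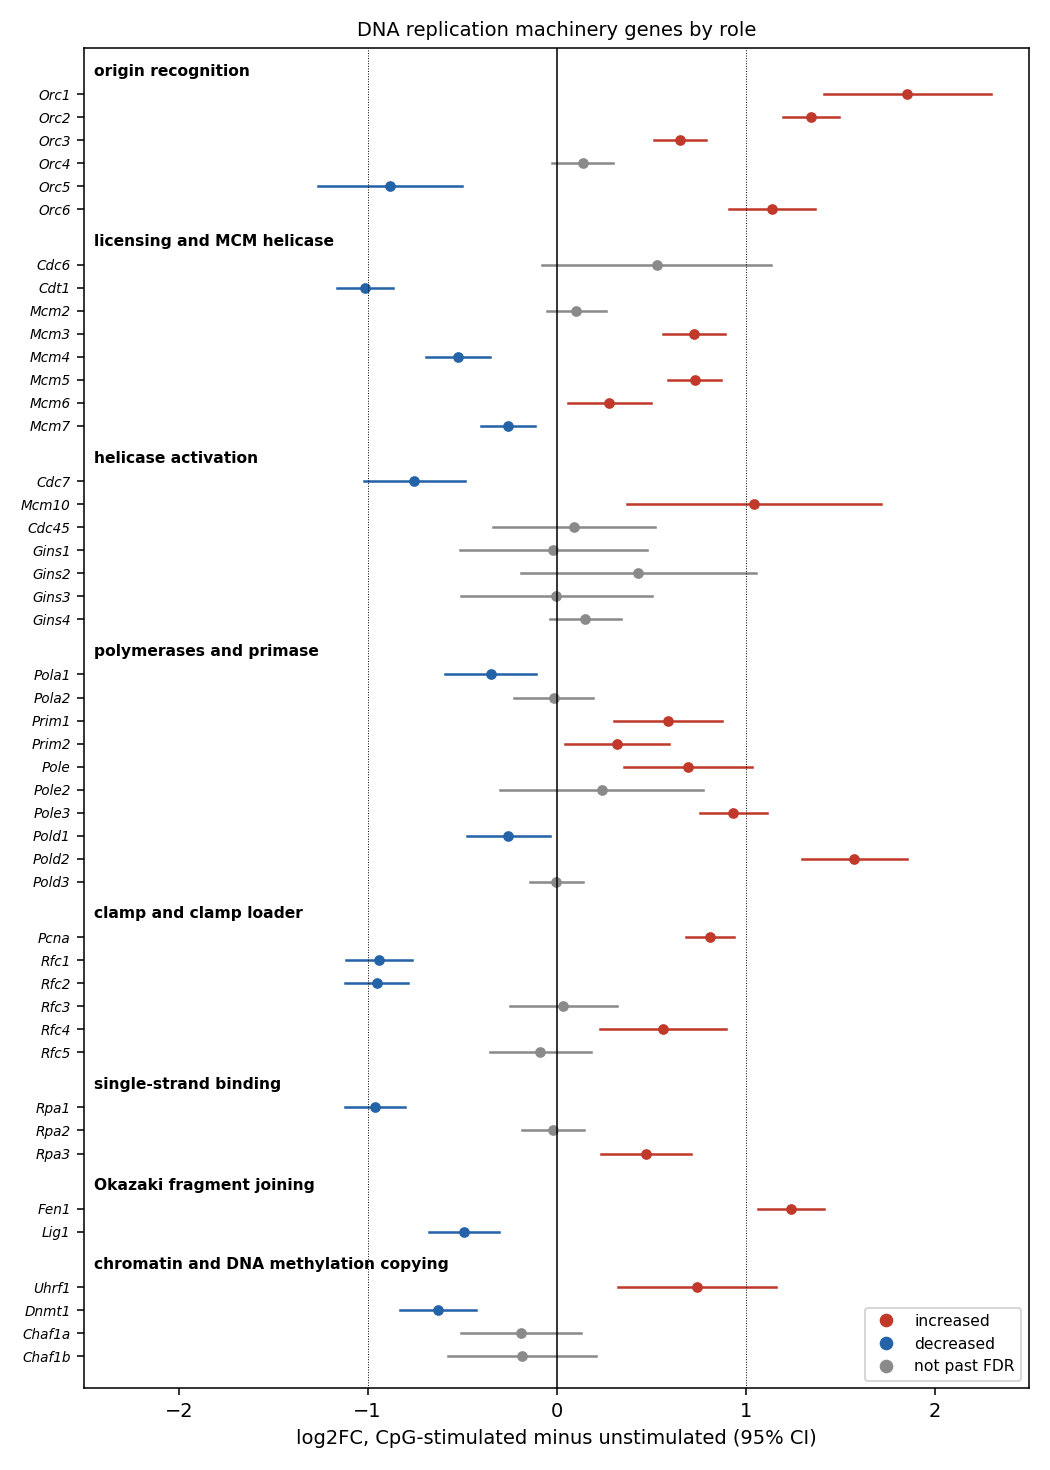
The log2FC of each of the 46 members (point) with its 95% confidence interval (line), grouped by role, with 3 samples per group; red marks increased, blue decreased and grey not past the FDR threshold, and dotted lines mark a log2FC of -1 and 1. Each role holds red and blue points, as do 9 of the 11 lists of related genes, and Orc1 lies farthest from 0 at 1.86.

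The origin recognition complex (ORC) is a ring of subunits that binds replication origins and serves as the platform for MCM loading. Of its 6 genes, 4 were increased, 1 was decreased and 1 was not past the threshold, with a median log2FC of 0.90. Over all genes tested 37.6% were increased and 36.7% decreased. The gene of ORC1, the subunit whose protein is known to come and go with the cell cycle, lies at chr4:108579423-108614833 (mm10, plus strand). Orc1 stood at 2.84, 2.25 and 2.502 log2 CPM in CpG-stimulated replicates 1 to 3 and at 0.76, 0.65 and 0.61 in unstimulated replicates 1 to 3. All CpG-stimulated samples were well above all unstimulated ones, and the log2FC of 1.86 ± 0.20 (SE) had a limma Benjamini-Hochberg FDR of 1.31e-05. This was the largest change among the 46 members, a fold of 3.62, except with log2(CPM + 1), where Pold2 (log2FC 1.54) exceeded Orc1 (1.39). It started from a low level of -0.92 log2 CPM per kb of exon, where all annotated exons of a gene count towards its length. An annotated gene on the opposite strand, Gm12743, covers 11.9% of the exon bases of Orc1 and was not analysed here.

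Orc2, a core subunit transcribed at a much higher level, read 6.80, 6.68 and 6.70 log2 CPM with CpG and 5.38, 5.34 and 5.44 without. The groups were far apart relative to their spread (log2FC 1.34 ± 0.07, limma Benjamini-Hochberg FDR 7.82e-08). Exons of Nif3l1 on the opposite strand cover 24.0% of the exon bases of Orc2, and Nif3l1 itself had a log2FC of 1.48. The libraries came from a stranded kit, but whether reads were counted by strand is not stated, so the part of Nif3l1 reads in the value of Orc2 was not tested.

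Orc6, whose product is the subunit most loosely held by the ring, had a log2FC of 1.14 ± 0.10, and Orc3, a core subunit, 0.65 ± 0.06. Both had groups that did not overlap. Exons of Vps35 on the opposite strand cover 7.1% of the exon bases of Orc6. Vps35 had a mean of 6.99 log2 CPM, against 3.45 for Orc6, and a log2FC of -0.33, and its part in the value of Orc6 was not tested. Orc5, the gene of an ATP-binding core subunit, went the other way, with 2.67, 2.83 and 2.48 log2 CPM in CpG-stimulated samples and 3.60, 3.20 and 3.82 in unstimulated samples. The lowest unstimulated sample, replicate 2, was still above the highest CpG-stimulated one, and Orc5 fell by 0.88 on the log2 scale (SE 0.17, limma Benjamini-Hochberg FDR 0.000873).

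The balance between these subunit transcripts differed between the groups. The level of Orc1 minus that of Orc5 was 0.17, -0.58 and 0.02 on the log2 scale in CpG-stimulated replicates and -2.84, -2.55 and -3.21 in unstimulated ones. The difference between these differences, 2.74, is free of any scaling shared by the genes of a sample. The pair was chosen after the values were seen. Since Orc1 and Orc5 each had groups without overlap, in opposite directions, the separation of the groups follows from that choice. Orc4, another ATP-binding core subunit, had a log2FC of 0.14 and was not past the threshold (limma Benjamini-Hochberg FDR 0.107).

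CDC6 and CDT1 bring the MCM ring to ORC, and MCM2 to MCM7 form the ring itself, the motor of the replicative helicase. In this role 3 genes were increased, 3 were decreased and 2 were not past the threshold, with a median log2FC of 0.19. Cdt1, the licensing factor whose protein is destroyed or blocked by geminin once S phase begins, lies at chr8:122568015-122573554 (mm10, plus strand). It was at 6.51, 6.55 and 6.53 log2 CPM in CpG-stimulated replicates and at 7.65, 7.53 and 7.44 in unstimulated ones. The CpG-stimulated samples lay within a few hundredths of each other and all below the unstimulated samples. On the linear scale Cdt1 fell by 50.5% (log2FC -1.01 ± 0.07, limma Benjamini-Hochberg FDR 4.37e-07).

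This was the largest decrease among the 46 members with all 6 samples. Rpa1 (-1.03) exceeded Cdt1 (-0.96) without unstimulated replicate 1, and Orc5 exceeded it without unstimulated replicate 2 (-1.05 against -1.02) or without number 2 in both groups (-1.14 against -1.03). In unstimulated cells Cdt1 was one of the most abundant members per length, at 6.41 log2 CPM per kb of exon, close to Pcna at 6.46. Cdc6, its partner in ring loading, was at -2.15 log2 CPM per kb in the same cells, below Mcm10 at -1.74 and the lowest of all members by this exon length. Its log2FC of 0.53 was not past the threshold (limma Benjamini-Hochberg FDR 0.1), although its CpG-stimulated values of 0.32, 0.60 and 1.01 log2 CPM were all above its unstimulated values of 0.05, 0.20 and 0.08. Without a trend in the spread Cdc6 was called increased (limma Benjamini-Hochberg FDR 0.034).

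The genes of the MCM ring moved apart from each other. Mcm3 was at 7.16, 6.97 and 7.13 log2 CPM with CpG and 6.41, 6.27 and 6.39 without (log2FC 0.73 ± 0.07, limma Benjamini-Hochberg FDR 8.24e-06). Mcm5 gave nearly the same change, with 6.57, 6.53 and 6.65 log2 CPM against 5.87, 5.82 and 5.88 (log2FC 0.73 ± 0.06, limma Benjamini-Hochberg FDR 2.69e-06). In both genes every CpG-stimulated sample exceeded every unstimulated sample.

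Mcm4 moved in the opposite direction, with 5.63, 5.46 and 5.61 log2 CPM in CpG-stimulated samples and 6.17, 6.10 and 6.01 in unstimulated samples (log2FC -0.52 ± 0.08, limma Benjamini-Hochberg FDR 0.000116). Mcm7 also fell, by less, from 6.31, 6.30 and 6.42 log2 CPM in unstimulated samples to 6.07, 6.07 and 6.11 in CpG-stimulated samples (log2FC -0.26 ± 0.06, limma Benjamini-Hochberg FDR 0.00392). Neither gene had overlapping groups, and the call of Mcm7 was lost in the female pairs (log2FC -0.23, limma Benjamini-Hochberg FDR 0.0527). Exons of Ap4m1 on the opposite strand cover 10.8% of the exon bases of Mcm7, and Ap4m1 had a log2FC of -0.85.

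Mcm6 was at 6.62, 6.42 and 6.33 log2 CPM with CpG and at 6.33, 6.18 and 6.02 without. Its groups touched, since unstimulated replicate 1 was as high as CpG-stimulated replicate 3, and the replicates of both groups followed the same order. Its log2FC of 0.28 ± 0.10 passed narrowly (limma Benjamini-Hochberg FDR 0.0254) and lost its call without CpG-stimulated replicate 1 (log2FC 0.20, limma Benjamini-Hochberg FDR 0.0922), without unstimulated replicate 2 (0.28, 0.0583) or without unstimulated replicate 3 (0.20, 0.106). It was also lost without a filter, without a trend, in the female pairs and without number 2 in both groups (FDR 0.168, 0.0702, 0.0683 and 0.065 by limma with Benjamini-Hochberg adjustment). With replicate number fitted as a block the call of Mcm6 held (limma Benjamini-Hochberg FDR 0.000505). Mcm2 was not past the threshold, with a log2FC of 0.10 (limma Benjamini-Hochberg FDR 0.204) and overlapping groups.

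Within a ring that holds 1 copy of each subunit, the transcript levels can be set side by side per length. In unstimulated replicates 1 to 3 the 6 genes spanned 1.02, 1.02 and 1.01 on the log2 CPM per kb scale. In CpG-stimulated replicates they spanned 1.77, 1.75 and 1.77. The wider span came from its ends, since Mcm3 was highest in each CpG-stimulated sample (5.56, 5.37 and 5.53 log2 CPM per kb) and Mcm4 was lowest (3.78, 3.62 and 3.76). In unstimulated samples Mcm2 was highest in each and the lowest was Mcm5 or Mcm6. The level of Mcm3 minus that of Mcm4 was 1.53, 1.504 and 1.52 in CpG-stimulated replicates and 0.24, 0.17 and 0.39 in unstimulated ones, a contrast chosen after the values were seen.

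**Figure D2:**
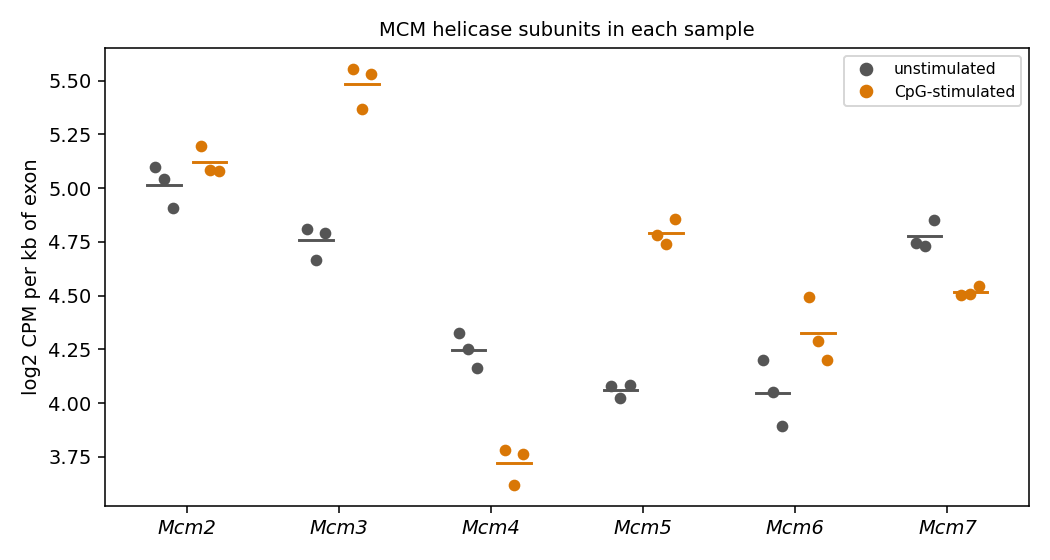
Levels of the 6 MCM ring genes in each sample as log2 CPM per kb of exon (points, replicates 1 to 3 from left to right) with the group mean (bar), unstimulated in grey and CpG-stimulated in orange. Mcm3 and Mcm5 lie higher and Mcm4 and Mcm7 lower with CpG, so that the 6 genes span 1.77 in CpG-stimulated replicate 1 and 1.02 in unstimulated replicate 1.

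Once loaded, the ring is inactive until CDC7 kinase phosphorylates it and CDC45 and the GINS complex join it, with MCM10 needed for the start of unwinding. Of the 7 genes of this role, 1 was increased, 1 was decreased and 5 were not past the threshold. Their median level of 1.65 log2 CPM was the lowest of the 8 roles and their median SE of 0.22 the largest, and the 95% confidence interval of Gins2, for example, ran from -0.19 to 1.06 on the log2 scale. Mcm10 read 1.87, 1.47 and 1.49 log2 CPM with CpG and 0.98, 0.83 and -0.11 without (log2FC 1.04 ± 0.30, limma Benjamini-Hochberg FDR 0.0096). The groups did not overlap, and unstimulated replicate 3 was lowest by a wide margin. Without that sample the log2FC was 0.71 (limma Benjamini-Hochberg FDR 0.0246), and without a filter the call was lost (0.0932).

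Cdc7 was at 2.83, 3.01 and 2.92 log2 CPM in CpG-stimulated samples and at 3.51, 3.80 and 3.69 in unstimulated samples. The kinase gene was thus lower in every CpG-stimulated sample (log2FC -0.75 ± 0.12, limma Benjamini-Hochberg FDR 0.000231). Dbf4, which encodes the subunit that activates CDC7, was increased (log2FC 0.44, limma Benjamini-Hochberg FDR 0.000345), so the genes of the kinase and its activator changed in opposite directions.

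Cdc45 had a log2FC of 0.09 (limma Benjamini-Hochberg FDR 0.684), which ranged from -0.015 to 0.318 over the alternatives listed at the end. Over the same alternatives the log2FC of Gins2 ranged from 0.209 to 0.69. The GINS genes had log2FC values of -0.02 for Gins1, 0.43 for Gins2, -0.00 for Gins3 and 0.15 for Gins4 (limma Benjamini-Hochberg FDR 0.947, 0.183, 0.994 and 0.126). Gins4 was far more abundant than the other genes of its complex, at 3.98 log2 CPM per kb in unstimulated samples against 1.36 for Gins1, 0.52 for Gins3 and -1.48 for Gins2. Exons of Gse1 on the opposite strand cover 70.7% of the exon bases of Gins2, and Gse1 had a log2FC of -2.26, so the value of Gins2 is uncertain.

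The copying is shared between enzymes: polymerase alpha with its primase lays down primers, polymerase epsilon extends the leading strand and polymerase delta the lagging strand. Of the 10 genes, 5 were increased, 2 were decreased and 3 were not past the threshold, with a median log2FC of 0.28. Pold2, an accessory subunit of polymerase delta at chr11:5872180-5878292 (mm10, minus strand), read 6.56, 6.22 and 6.36 log2 CPM in CpG-stimulated samples and 5.07, 4.69 and 4.64 in unstimulated samples. It had the largest change of the role (log2FC 1.58 ± 0.13, limma Benjamini-Hochberg FDR 1.48e-06), and the lowest CpG-stimulated sample was above the highest unstimulated one by more than a full log2 unit.

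Pold1, the catalytic subunit of the same enzyme, was at 6.35, 6.76 and 6.56 log2 CPM with CpG and at 6.76, 6.77 and 6.89 without. CpG-stimulated replicate 2 came almost level with the unstimulated samples. The decrease was small (log2FC -0.26 ± 0.10, limma Benjamini-Hochberg FDR 0.0372) and the call was lost without any 1 of 5 samples, with log2FC from -0.36 to -0.15 over the 6 cases. It held without CpG-stimulated replicate 2 and was lost without a filter, without a trend and in the female pairs (limma Benjamini-Hochberg FDR 0.213, 0.0936 and 0.208). Pold3, a further accessory subunit, had a log2FC of -0.00 (limma Benjamini-Hochberg FDR 0.99), with a 95% confidence interval of -0.14 to 0.14.

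The level of Pold2 minus that of Pold1 was 0.21, -0.54 and -0.19 in CpG-stimulated replicates and -1.69, -2.08 and -2.24 in unstimulated ones. This pair, too, was chosen after the values were seen. Per kb of exon, Pold2 was at 4.08 log2 CPM and Pold1 at 5.02 in unstimulated samples, and with CpG Pold2 was at 5.66 and Pold1 at 4.77, so their order was reversed. In polymerase epsilon, Pole3, a small histone-fold subunit, was at 5.52, 5.50 and 5.48 log2 CPM with CpG and at 4.44, 4.62 and 4.63 without (log2FC 0.93 ± 0.08, limma Benjamini-Hochberg FDR 2.43e-06). The CpG-stimulated samples were tightly grouped and all above the unstimulated ones.

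Pole, the catalytic subunit of that polymerase, was increased with a log2FC of 0.70 ± 0.15, and its second subunit gene Pole2 was not past the threshold (log2FC 0.24, limma Benjamini-Hochberg FDR 0.386), with 14.4% of its exon bases shared with Gm49384 on the same strand. The log2FC of Pole2 ranged from 0.136 to 0.399 over the alternatives. Pola1, the catalytic subunit of polymerase alpha, read 3.55, 3.54 and 3.63 log2 CPM in CpG-stimulated samples and 3.91, 3.78 and 4.08 in unstimulated samples. The groups did not overlap, and Pola1 fell by 0.35 (SE 0.11, limma Benjamini-Hochberg FDR 0.0131), a call that was lost without unstimulated replicate 3 (log2FC -0.27, limma Benjamini-Hochberg FDR 0.0622) and in the female pairs (-0.30, 0.0984). Pola2, its accessory subunit, had a log2FC of -0.01 (limma Benjamini-Hochberg FDR 0.898).

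The primase genes went with the increases. Prim1, the catalytic subunit, had a log2FC of 0.59 ± 0.13 and Prim2, the larger subunit, 0.32 ± 0.12 (limma Benjamini-Hochberg FDR 0.00182 and 0.0376). Both had groups without overlap. Prim2 lost its call without CpG-stimulated replicate 3 (log2FC 0.23, limma Benjamini-Hochberg FDR 0.154), without unstimulated replicate 1 (0.29, 0.0954) or without unstimulated replicate 3 (0.28, 0.111). The call was also lost in the female pairs, where the log2FC was 0.20 (limma Benjamini-Hochberg FDR 0.317), and without a filter (0.0814).

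PCNA is the sliding clamp that holds polymerases on DNA, and RFC1 to RFC5 form the loader that opens and closes it. Of these 6 genes, 2 were increased, 2 were decreased and 2 were not past the threshold. Pcna, at chr2:132249162-132253314 (mm10, minus strand), was the most abundant member per length in both groups, at 7.27 log2 CPM per kb with CpG and 6.46 without. Its values were 7.83, 7.91 and 7.87 log2 CPM in CpG-stimulated samples and 7.06, 7.03 and 7.10 in unstimulated samples, with little spread in either group. The log2FC was 0.81 ± 0.06 (limma Benjamini-Hochberg FDR 6.66e-07).

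Rfc1, the large subunit specific to this loader, moved the other way, from 5.63, 5.63 and 5.77 log2 CPM in unstimulated samples to 4.70, 4.67 and 4.83 in CpG-stimulated samples (log2FC -0.94 ± 0.08, limma Benjamini-Hochberg FDR 2.22e-06). Rfc2, a small subunit, changed by about as much, from 5.54, 5.53 and 5.55 to 4.57, 4.67 and 4.52 log2 CPM (log2FC -0.95 ± 0.07, limma Benjamini-Hochberg FDR 1.27e-06). In both genes all CpG-stimulated samples were lower than all unstimulated ones. Exons of Lat2 on the opposite strand cover 19.1% of the exon bases of Rfc2, and Lat2 had a log2FC of -1.96, whose part in the value of Rfc2 was not tested.

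Rfc4 was increased with a log2FC of 0.56 ± 0.15, with groups that did not overlap, and its call was lost in the female pairs (log2FC 0.39, limma Benjamini-Hochberg FDR 0.0955). Opposite-strand exons of Eif4a2, at a mean of 9.19 log2 CPM against 3.08 for Rfc4, cover 13.4% of the exon bases of Rfc4. Eif4a2 had a log2FC of -0.25, and the part of its reads in the value of Rfc4 was not tested. Opposite-strand exons of Wsb2 cover 15.4% of the exon bases of Rfc5. Rfc3 and Rfc5 were not past the threshold, with log2FC values of 0.03 and -0.09 (limma Benjamini-Hochberg FDR 0.815 and 0.53). The loader genes thus did not share a direction, with Rfc4 increased as Pcna was and Rfc1 and Rfc2 decreased. The level of Pcna minus that of Rfc1 was 3.13, 3.24 and 3.04 in CpG-stimulated replicates and 1.43, 1.39 and 1.33 in unstimulated replicates, a change of 1.75. The 2 genes were paired after their values were seen.

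Replication protein A covers the single strands exposed at the fork and is made of a large, a middle and a small subunit. The gene of the large subunit, Rpa1, was at 5.87, 5.92 and 5.95 log2 CPM with CpG and at 6.75, 6.93 and 6.95 without. Every CpG-stimulated value was below every unstimulated value (log2FC -0.96 ± 0.07, limma Benjamini-Hochberg FDR 9.13e-07). Rpa3, the small subunit, was instead higher in all CpG-stimulated samples, at 3.76, 3.81 and 3.72 log2 CPM against 3.28, 3.17 and 3.41 (log2FC 0.47 ± 0.11, limma Benjamini-Hochberg FDR 0.00228). Rpa2, the middle subunit, had a log2FC of -0.02 with a 95% confidence interval of -0.19 to 0.15 (limma Benjamini-Hochberg FDR 0.828).

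The 3 genes of this trimer therefore gave 1 increase, 1 decrease and 1 value near 0. Per kb of exon, the large subunit was at 4.51 log2 CPM, the middle at 4.46 and the small at 3.87 in unstimulated samples. In CpG-stimulated samples they were at 3.55, 4.44 and 4.34. The large subunit was thus about level with the middle one in unstimulated samples and the lowest of the 3 in CpG-stimulated samples. This order depends on the exon lengths used.

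FEN1 trims the flaps between Okazaki fragments, the short pieces of the lagging strand, and DNA ligase I seals them. Fen1, at chr19:10199132-10204169 (mm10, minus strand), read 6.88, 6.72 and 6.74 log2 CPM in CpG-stimulated samples and 5.65, 5.43 and 5.53 in unstimulated samples. The groups stood more than a log2 unit apart at their closest samples (log2FC 1.24 ± 0.08, limma Benjamini-Hochberg FDR 3.16e-07). Lig1 was lower with CpG, at 4.42, 4.53 and 4.36 log2 CPM against 4.86, 4.995 and 4.94 (log2FC -0.49 ± 0.08, limma Benjamini-Hochberg FDR 0.000391), again without overlap.

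Steps that act one after the other on the same fragment were thus opposite in their transcripts. The level of Fen1 minus that of Lig1 was 2.46, 2.19 and 2.37 in CpG-stimulated replicates and 0.79, 0.44 and 0.60 in unstimulated ones, a contrast chosen after the values were seen. An annotated gene on the opposite strand, Gm10143, covers 78.8% of the exon bases of Fen1 and was not analysed here.

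Behind the fork, UHRF1 recognises DNA methylated on the parent strand and recruits DNMT1, which methylates the new strand, while the CAF-1 subunits encoded by Chaf1a and Chaf1b place histones on the new DNA. Of these 4 genes, 1 was increased, 1 was decreased and 2 were not past the threshold. Uhrf1 read 3.93, 3.77 and 4.04 log2 CPM with CpG and 3.40, 3.41 and 2.69 without. Unstimulated replicate 3 was far below the other samples of its group, and the groups did not overlap (log2FC 0.74 ± 0.19, limma Benjamini-Hochberg FDR 0.00461). The log2FC was 0.504 without that sample and 0.44 in the female pairs, where the call held, and the call was lost without a filter (limma Benjamini-Hochberg FDR 0.0822).

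Dnmt1 was at 5.61, 5.37 and 5.42 log2 CPM in CpG-stimulated samples and at 6.11, 5.96 and 6.22 in unstimulated samples. It was lower in every CpG-stimulated sample than in any unstimulated one (log2FC -0.63 ± 0.09, limma Benjamini-Hochberg FDR 0.000117), opposite to the gene of its recruiting partner. Chaf1a and Chaf1b had log2FC values of -0.19 and -0.18 (limma Benjamini-Hochberg FDR 0.249 and 0.362). Exons of Ubxn6 on the opposite strand cover 33.6% of the exon bases of Chaf1a.

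Sequence features of the promoters played no part in the choice of genes. RefSeq promoters (GRCm38.p6) were available for 39 of the 46 members, and the 250 bases before each start were searched on both strands. E2F factors are known to bind letters such as TTTCCCGC, TTTCGCGC, TTTGCCGC and TTTGGCGC, and any of these was present in 11 of 39 members (28.2%), in 2.2% of all 27025 genes with a promoter and in 4.2% of the 8400 of them that were tested. Counted by promoter, it was 11 of 51 promoters of members (21.6%) and 1.9% of all 32851 promoters.

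The match was in 31.2% of increased, 30.0% of decreased and 23.1% of other members, shares that were not compared by a test. It was found in 5 of 16 increased members (Mcm5, Mcm6, Orc1, Orc3 and Uhrf1), in 3 of 10 decreased members (Mcm7, Pola1 and Dnmt1) and in 3 of 13 members not past the threshold (Cdc6, Gins3 and Rfc3). The box CCAAT was in 61.5% of members, in 40.9% of the tested genes and in 37.5% of all genes with a promoter. The E-box CACGTG was in 15.4%, 10.3% and 6.9%, and the letters TTTGAA, the core of an element in genes of late cell cycle phases, in 17.9%, 12.5% and 18.3%. A match is a description of letters, and no binding was measured.

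Promoter bases are shown for members that changed in opposite directions and whose shown bases lie before the annotated gene, with the E2F letters in capitals. Each is written 5′ to 3′ on the strand of its gene. The Mcm5 bases are at chr8:75109336-75109387 (plus strand), the Mcm6 bases at chr1:128359725-128359835 (minus strand), the Orc3 bases at chr4:34614956-34615003 (minus strand) and the Pola1 bases at chrX:93632266-93632313 (minus strand).
Mcm5, increased: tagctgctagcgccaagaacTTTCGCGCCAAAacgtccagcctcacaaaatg
Mcm6, increased: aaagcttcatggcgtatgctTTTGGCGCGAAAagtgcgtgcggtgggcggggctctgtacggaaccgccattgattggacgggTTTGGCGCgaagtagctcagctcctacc
Orc3, increased: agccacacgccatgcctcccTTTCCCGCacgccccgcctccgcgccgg
Pola1, decreased: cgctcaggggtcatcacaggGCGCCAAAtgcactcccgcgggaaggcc
In Mcm5 a pair of matches on opposite strands share 4 letters and cover 12, and Mcm6 has such an overlapping pair 110 bases before its start and a further match 47 bases before it. Orc3, increased, and Pola1, decreased, each hold a single match, 41 and 138 bases before the start.

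Genes that work beside the members were read in 11 lists with 87 genes, of which 86 were tested. Of these, 34 were increased (39.5%), 21 were decreased (24.4%) and 31 were not past the threshold. Over all genes tested, 37.6% were increased and 36.7% decreased. The median log2FC of the related genes was 0.12, close to the members' own. The E2F and RB factors, which control S phase genes, had a median absolute log2FC of 1.003, beside the 0.53 of the members. Of 12 tested E2F and RB genes, 6 were increased and 4 decreased, and the 4 decreases included all 3 pocket proteins that restrain E2F. Rb1 was at 5.82, 5.84 and 5.83 log2 CPM with CpG and 7.26, 7.16 and 7.34 without (log2FC -1.43), Rbl2 had a log2FC of -1.55 and Rbl1 of -1.24.

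The partners of E2F proteins split, since Tfdp1 was increased (log2FC 1.76) and Tfdp2 decreased (log2FC -1.92). The E2f genes with a call were all increased, with a log2FC of 0.76 for E2f1, 0.29 for E2f3, 0.77 for E2f4, 0.76 for E2f5 and 1.296 for E2f6, while E2f8 was not past the threshold (log2FC -0.54, limma Benjamini-Hochberg FDR 0.179). E2f2 was not past the threshold (log2FC 0.58, limma Benjamini-Hochberg FDR 0.0594) until replicate number was fitted as a block (limma Benjamini-Hochberg FDR 2.11e-05), and it was also called without CpG-stimulated replicate 1 (log2FC 0.81), unstimulated replicate 2 (0.81) or number 2 in both groups (0.62), while the log2FC was 0.32 without unstimulated replicate 1 and 0.39 without CpG-stimulated replicate 2. The call of E2f3 was lost without CpG-stimulated replicate 2 (log2FC 0.26), unstimulated replicate 2 (0.27), unstimulated replicate 3 (0.24) or number 2 in both groups (0.24), and in the female pairs (0.26). E2f7 did not pass the filter.

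Among the helpers of helicase activation, 4 of 8 were increased and 2 decreased, with Mtbp at a log2FC of 1.33, Ticrr at 0.66, Donson at -0.94 and Topbp1 at -0.30. The increase of Ticrr and Mtbp, whose products act together in CDC45 loading, came without a call in Cdc45, and the call of Ticrr was lost in the female pairs (log2FC 0.57, limma Benjamini-Hochberg FDR 0.0751). Of the 8 genes that limit licensing or remove its factors, 2 were increased and 2 decreased, the latter Gmnn and Fbxo5 (-0.55), whose call was lost without number 2 in both groups (-0.41). Skp2 was called increased without a trend (log2FC 0.426, limma Benjamini-Hochberg FDR 0.0297) and without CpG-stimulated replicate 2 (0.555, 0.0299). Gmnn, the gene of the CDT1 inhibitor geminin, was at 2.02, 1.80 and 1.88 log2 CPM with CpG and 2.56, 2.42 and 2.55 without (log2FC -0.61, limma Benjamini-Hochberg FDR 0.00323), so the genes of CDT1 and of its inhibitor both decreased. Ddb1 and Cul4a, parts of a ligase that destroys CDT1, had log2FC values of 0.64 and 0.57.

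Further subunits, loaders and nucleases gave 3 increased and 1 decreased of 10. The decreased gene was Pold4, the smallest subunit of polymerase delta, at 4.68, 5.05 and 4.71 log2 CPM with CpG and 6.63, 6.70 and 6.50 without (log2FC -1.80, limma Benjamini-Hochberg FDR 1.98e-07). Of the polymerase delta genes, Pold2 was thus increased, Pold1 and Pold4 were decreased and Pold3 was not past the threshold. Chtf8, part of another clamp loader, was increased by 0.86 and Rnaseh2b, part of the nuclease that removes RNA from DNA, by 0.84 on the log2 scale. Dscc1, of the same loader as Chtf8, had a log2FC of -0.85 and was not past the threshold (limma Benjamini-Hochberg FDR 0.238), and Rnaseh2c was called decreased (-0.42) without unstimulated replicate 1.

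In the supply of deoxynucleotides, 3 of 9 genes were increased and 5 decreased. Dck, the kinase that salvages deoxynucleosides, was at 2.88, 2.97 and 2.93 log2 CPM with CpG and 5.63, 5.77 and 6.09 without (log2FC -2.91). Samhd1, which breaks deoxynucleotides down, had a log2FC of -2.29, and Tyms, which makes thymidylate, had one of 2.37, from 0.32, 0.56 and 0.49 log2 CPM in unstimulated samples to 2.92, 2.54 and 3.02 in CpG-stimulated samples. Tk1 (0.78) and Dut (0.65), both in the supply of thymidine nucleotides, were the other increases.

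The replication checkpoint, which senses stalled forks, gave 6 increased and 1 decreased of 9 genes, with a median log2FC of 1.08. Beside this and the other short lists of this paragraph stand 37.6% increased and 36.7% decreased over all genes tested. Wee1, the kinase that holds back CDK activity, had a log2FC of 1.95 and Chek1 one of 1.37, and Rad9a was the 1 decrease at -1.12, joined by Etaa1 (-0.34) without unstimulated replicate 1. Of the 3 fork protection genes, Tipin was increased (1.08) and Timeless, which encodes its binding partner, decreased (-0.34), a call that was lost without CpG-stimulated replicate 2 (log2FC -0.19) or without unstimulated replicate 1 (-0.33), 2 (-0.37) or 3 (-0.33). It was also lost without a filter, without a trend, in the female pairs (-0.44) and without number 2 in both groups (-0.22). Clspn, the third of them, had a log2FC of -0.55 (limma Benjamini-Hochberg FDR 0.105) and passed without CpG-stimulated replicate 2 (-0.74, 0.0454). The 6 histone chaperone genes gave 5 increases by limma, and 0 decreases at FDR under 0.05 or at an unadjusted p under 0.05, led by Supt16 (0.80), Nasp (0.59) and Ssrp1 (0.29), and of 3 topoisomerase genes Top2b was called (-0.93), joined by Top2a (0.26) without number 2 in both groups.

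Genes of S phase entry and of mitosis were read for comparison. Of 6 S phase cyclin and kinase genes, 2 were increased (Cdc25a 0.97, Ccne2 0.67) and 2 decreased, among them Ccne1 (-0.63). The call of Ccne2 held only without CpG-stimulated replicate 3 when any 1 sample was left out (log2FC from 0.54 to 0.81), and it was lost with replicate number as a block (limma Benjamini-Hochberg FDR 0.052), without a filter (0.0515) and without number 2 in both groups (log2FC 0.49). The call of Ccne1 was lost without CpG-stimulated replicate 1 or 3 (log2FC -0.61 and -0.53) or unstimulated replicate 2 or 3 (-0.64 and -0.49), without a filter and in the female pairs (-0.39). Cdk1 was not past the threshold (log2FC 0.77, limma Benjamini-Hochberg FDR 0.0575), and it passed with the block (0.0248), without unstimulated replicate 2 (log2FC 1.15, limma Benjamini-Hochberg FDR 0.00485) or without number 2 in both groups (1.197, 0.00881). Its log2FC was 0.496 without unstimulated replicate 1 and 0.48 in the female pairs (limma Benjamini-Hochberg FDR 0.201 and 0.357). Of 12 mitosis genes, 2 were increased, led by Birc5 (1.31), and 2 were decreased, Cenpa (-3.08) and Aurkb (-0.93), with a median log2FC of 0.06 and a median level of 2.001 log2 CPM. Bub1b was called increased without CpG-stimulated replicate 2 (log2FC 0.508, limma Benjamini-Hochberg FDR 0.0346). Mki67 had a log2FC of -0.50 (limma Benjamini-Hochberg FDR 0.185, 0.00359 with the block) and passed without unstimulated replicate 1 (log2FC -0.85, limma Benjamini-Hochberg FDR 0.0213). Without unstimulated replicate 2, its highest sample, the log2FC of Mki67 was -0.095 (limma Benjamini-Hochberg FDR 0.726).

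**Figure D3:**
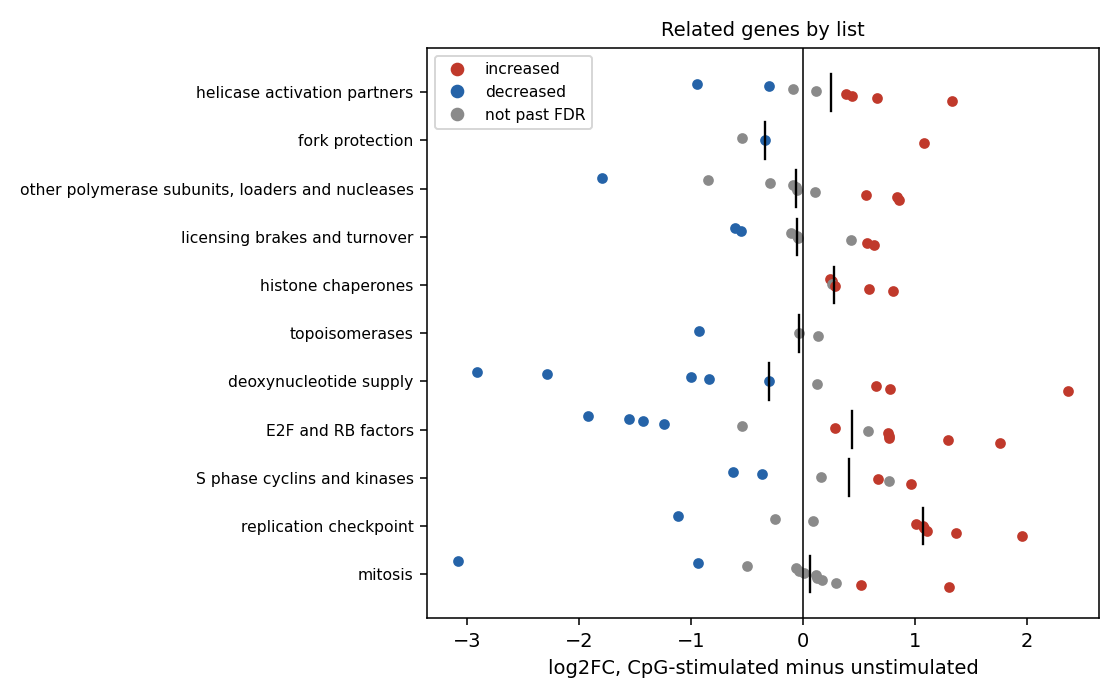
The log2FC of each of the 86 tested related genes (points) by list, with the median of each list (black bar); red marks increased, blue decreased and grey not past the FDR threshold. The checkpoint list has its median at 1.08 and the mitosis list at 0.06.

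Without replicate number 2 in both groups, an alternative chosen after the erythroid values were seen, 17 members were increased and 12 decreased, the median log2FC of the members was 0.23, and the log2FC of Orc5 was under -1 beside that of Cdt1.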

How the data were processed

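Per the labels and the methods of the study, the authors used STAR 2.6.1a for alignment (mm10) and featureCounts (Subread 2.0.1) for counting, and deposited log2 CPM values made by quantile normalization and voom. The libraries came from a stranded kit, and whether counting used strand is not stated. The level of a gene without reads gives a common depth of 17.8 M reads. In 254 genes that differ by 1 read within a pair of same-numbered samples, the other 4 samples lay above the lower value by 0.167 of that step, so the values carry a shift shared by replicate number, which cancels in log2FC where both samples of a number are used, enters it where 1 of them is left out, and alters the spread behind the p-values.

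The values were fitted with limma 3.58.1 in R 4.3.3 (group only, eBayes with trend), tested on simulated data. Deviations of same-numbered samples correlated at 0.435, 0.224 and 0.300, those of other pairs at -0.281 to 0.028, and sex labels match by number, so replicate number pairs the samples and its block was an alternative. Others were the filter, log2(CPM + 1), no trend, centring, and samples or pairs left out. Members and lists were chosen with earlier results of these data known. Named with values in every sample were the 2 largest changes of each role and every decreased member. Of each related list, the 3 largest changes among genes past the FDR threshold were named, with those past it opposite to most of the list. Other named genes (Mcm3, Mcm6, Cdc6, Pcna, Dbf4, the E2f genes, Cdk1, Mki67, Bub1b, Dscc1, Clspn, Rnaseh2c, Etaa1, Top2a, Fbxo5, Skp2) and the differences between 2 genes were chosen after their values were seen. Exon lengths, taken over all annotated exons of a gene, and overlaps came from GENCODE M21. The length of the transcripts expressed was not determined, so the order of genes by level per kb is approximate.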

Additional observations from a re-analysis of the deposited data

How the results depend on the processing

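Under the alternatives listed above the members increased ranged from 14 to 18, those decreased from 9 to 12, those with a log2FC over 1 from 5 to 6, and no called member changed sign. Without a filter 14 were increased and 11 decreased. With the replicate block the counts were 18 and 12 and the median log2FC was 0.12. Apart from E2f2, Ccne2, Cdk1, Mki67, Hbb-bs and Slc4a1, the block changed no call in the text. In the female pairs alone 15 were increased and 9 decreased. The members with a log2FC under -1 numbered 1 to 2 when any 1 sample was left out: without unstimulated replicate 1 Rpa1 (-1.03) replaced Cdt1 (-0.96), and without unstimulated replicate 2 Orc5 (-1.05) exceeded Cdt1 (-1.02), as without number 2 in both groups (2), where the median log2FC of members was 0.23. Signs changed only in members that were not past the threshold: Gins3 with log2(CPM + 1) (0.006), Cdc45 (-0.015) and Pola2 (0.009) in female pairs, and Gins1 (0.16), Gins3 (0.32), Pola2 (0.01), Pold3 (0.025) and Rpa2 (0.015) without number 2. With any 1 sample left out, the log2FC ranged from -0.19 to 0.10 in Gins1, -0.14 to 0.26 in Gins3, -0.057 to 0.052 in Pola2, -0.018 to 0.013 in Pold3, -0.034 to 0.12 in Rfc3 and -0.063 to 0.028 in Rpa2. The cause was not tested. With log2(CPM + 1) Pold2 (1.54) exceeded Orc1 (1.39). Of the 10 members under 3 log2 CPM, 8 (all but Orc1 and Mcm10) had 95% confidence intervals that include 0, and the part of depth was not tested.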
